A study of Mus musculus with 9 samples.

Results

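The comparison described here set BV-2 microglial cells given LPS together with β-hydroxybutyrate against BV-2 cells left untreated. Members were chosen by the submitters' treatment labels, the 6 libraries labelled LPS+BHB or PBS, of 9 libraries in the series. BV-2 is an immortalized mouse microglial line, and the study asked how the ketone body acts on microglia that have met LPS, the endotoxin of Gram-negative bacteria. Messenger RNA was sequenced in 3 libraries per group. The BHB group received 1 μg/mL LPS and 1.5 mM R-3-hydroxybutyric acid (β-hydroxybutyrate), the Medium group received the same LPS alone, and the Control group received PBS and no LPS. The doses are those of the study's culture methods, and the time of exposure before sequencing was not given in the sources used here. No library held β-hydroxybutyrate without LPS, so in BHB against Control the effects of the 2 agents cannot be told apart. Medium values are given beside the others for orientation, and all groups derive from a single cell line, which limits them as a model of microglia in tissue.

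Microglia are the resident macrophages of the central nervous system. LPS binds CD14 and the TLR4 and MD-2 complex at their surface, and the adaptors MyD88 and TRIF then switch on NF-κB, AP-1 and interferon regulatory factors. Cytokines and chemokines are made first, feedback inhibitors of NF-κB follow, and secreted type I interferon induces a later set of antiviral genes. Activated macrophages also turn to glycolysis, make nitric oxide and itaconate, and lower the genes that mark resting microglia. β-hydroxybutyrate is made in the liver during fasting, is oxidized in mitochondria, binds the receptor HCAR2 and has been described as an inhibitor of class I histone deacetylases.

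Total counts ranged from 27905139 to 30996141 in BHB, from 26755935 to 32767278 in Medium and from 23411672 to 28746863 in Control. The 10 most abundant genes took 10.3% to 10.9% of the counts in BHB, 13.2% to 14.9% in Medium and 8.82% to 9.03% in Control. On log2 CPM (counts scaled to library size with TMM factors), the first principal component held 56.1% of the variance and placed BHB between the others, at -1.39 to -2.03 against 51 to 52.2 in Control and -44.1 to -53.5 in Medium. The second held 31.1% and set BHB apart from both, at 42.4 to 44.7 against -20 to -21.2 in Control. Medium replicate 3 stood apart from its group, and the fit without it called 3813 genes higher and 3792 lower in BHB than in Control. The microglia and macrophage markers were present in all groups, with summed levels of 3330 to 3590 CPM in BHB, 2880 to 3780 CPM in Medium and 3180 to 3320 CPM in Control over 12 genes, 11 of them tested, of which 3 were higher and 1 lower in BHB. Adult markers were sparse, since P2ry12 had 2 to 8 counts per BHB library against 8 to 28 per Control library and Tmem119 averaged 1.85 CPM in BHB and 2.01 CPM in Control. Of 8 astrocyte markers 3 were in the deposited counts, and none of these passed the filter on low counts. Their summed level was 0.246 to 0.616 CPM in BHB against 0 to 0.127 CPM in Control. The same sum was 0.562 to 1.2 against 0.721 to 0.796 CPM over the 4 of 8 neuronal markers present. For the 3 of 8 endothelial and stromal markers present it was 0.325 to 0.737 against 0.144 to 0.349 CPM. The 5 of 8 oligodendrocyte markers present summed to 34.8 to 38 CPM in BHB and 33 to 37 CPM in Control, most of it from Cnp. The only lymphocyte or neutrophil marker in the table was at 0 in every Control library and at 0 to 0.386 CPM in BHB. Markers absent from the deposited counts do not enter these sums.

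BHB cells differed from untreated cells across most of the transcriptome, and most differences were small. Among 10413 genes tested with edgeR's quasi-likelihood test at a Benjamini-Hochberg adjusted p of 0.05, 6948 (66.7%) were called, 3478 (33.4%) higher and 3470 (33.3%) lower in BHB. The remaining 3465 were not called, and for 2997 of these the 95% interval of the fold change lay within 2-fold either way. Per-library values below are CPM in replicates 1, 2 and 3, and means are given ± SD over 3 libraries. Of the called genes 80.1% differed by under 2-fold, while 700 (6.72% of those tested) were at least 2-fold higher and 682 (6.55%) at least 2-fold lower. Larger steps leaned upward, with 241 genes at least 4-fold higher and 125 at least 4-fold lower, and with 52 at least 16-fold higher and 19 at least 16-fold lower. BHB and Control values were fully separated in 7843 genes (75.3%). Scaled to library size alone, the median gene stood at -0.14 on the log2 scale instead of 0, and 2529 genes were called higher and 4414 lower. Small differences therefore depend on the scaling. The shares of 33.4% higher and 33.3% lower over all genes tested are the background for the list counts below.

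**Figure D1:**
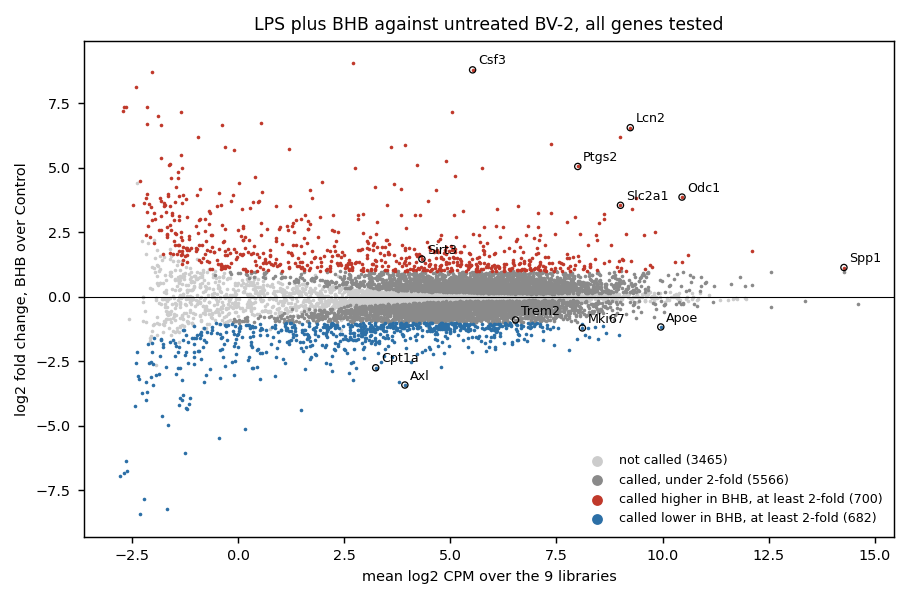
Log2 fold change of BHB over Control (vertical axis) against mean log2 CPM over the 9 libraries (horizontal axis), 1 point per tested gene. Red and blue points are the 700 higher and 682 lower genes called at 2-fold or more, dark grey are smaller called differences and light grey are genes not called. Labelled genes are described in the text.

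The genes farthest above the untreated level included cytokines, chemokines and inflammatory enzymes. The largest increases among genes at a mean log2 CPM of 3 or more included Csf3, granulocyte colony-stimulating factor (log2 fold change 8.8), Cxcl2, a neutrophil chemokine (7.17), Lcn2, the iron-siderophore binding protein lipocalin 2 (6.56), Nos2, the inducible nitric oxide synthase (6.21), and Ccl7, a monocyte chemokine (5.91). They went on with Hist1h2bq (5.88), a histone gene with near-identical copies whose count is uncertain, the transcriptional inhibitor Id3 (5.8), Il1a (5.27), the uridine phosphorylase Upp1 (5.13) and the cyclooxygenase Ptgs2 (5.06). Further down were the survival kinase Pim2 (4.68), Ntng2 (4.37), the cytokine Lif (4.24) and lymphotoxin alpha, Lta (4.18). In the other direction stood Axl, a receptor for the uptake of dying cells (-3.42), Gpr157 (-3.28), Cpt1a, which passes long-chain fatty acids to mitochondrial oxidation (-2.75), Nos1, the neuronal nitric oxide synthase (-2.72), the ubiquitin ligase Mylip (-2.53), Tmem51 (-2.51) and Fbxw7, a ubiquitin ligase subunit for cyclin E and Myc (-2.35). Ssc5d (-2.29), Ppp1r10 (-2.22), Chst10 (-2.2), the inhibitory receptor Cd300a (-2.18), Plekhh2 (-2.18), Tns1 (-2.15), the RNA receptor Tlr7 (-2.14) and the lysosomal nucleoside transporter Slc29a3 (-2.1) completed the 15 largest decreases. Adjusted p-values of these genes were 2.54e-06 or below.

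**Figure D2:**
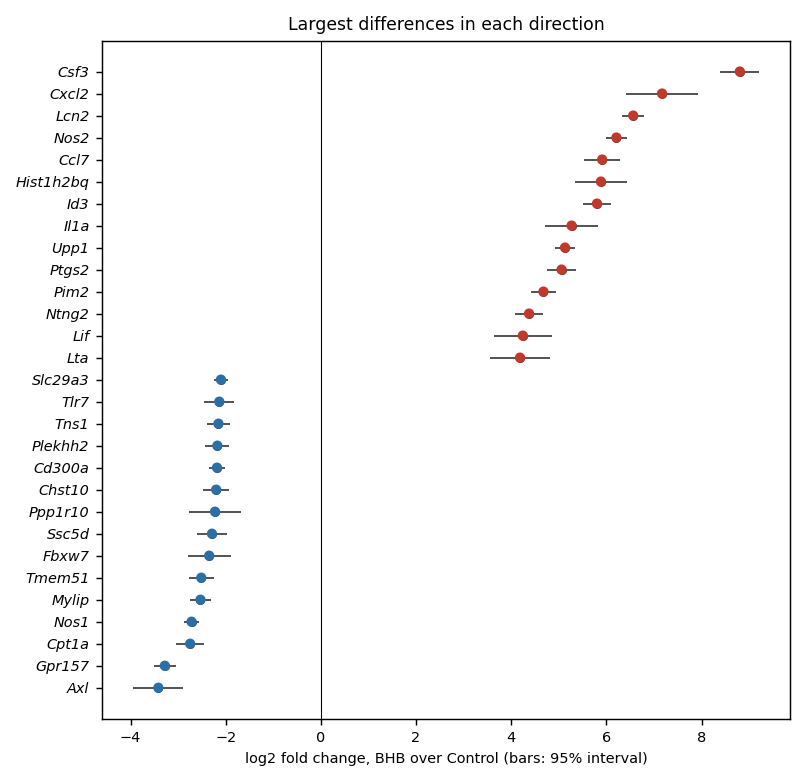
Log2 fold change of BHB over Control with its 95% interval for 14 of the 15 largest increases and the 15 largest decreases among called genes at a mean log2 CPM of 3 or more whose groups did not overlap. Increases reach 8.8 for Csf3 while the largest decrease is -3.42 for Axl.

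Secreted cytokines and chemokines stayed above the untreated level as a group. Of 44 listed, 36 were tested, 25 were higher and 4 lower in BHB, with 23 at least 2-fold higher and 1 at least 2-fold lower, and the median log2 fold change was 2.01, against -0.000382 over all genes tested (2.01 also with the 2 members at 0 in Control set to their floor). Csf3 had 265, 311 and 312 CPM in BHB and 489.7, 540.1 and 578 CPM in Medium, against 0.659, 1.05 and 0.217 CPM in Control (log2 fold change 8.8, standard error 0.1897, adjusted p = 9.02e-14). Tnf, the tumour necrosis factor, had 369.6, 453 and 462 CPM in BHB and 1847, 2030.5 and 1878 CPM in Medium, against 60.2, 62.6 and 53.8 CPM in Control (log2 fold change 2.86, standard error 0.0919, adjusted p = 5.44e-12). For both, every BHB library lay below every Medium library and above every Control library. Ccl2, which draws monocytes, had 1268, 1433 and 1335 CPM in BHB and 2128, 2284 and 2534 CPM in Medium, against 89.8, 98.3 and 93.7 CPM in Control (log2 fold change 3.84, standard error 0.0833, adjusted p = 9.02e-14). The more abundant Ccl3 had 4419, 5461 and 5489 CPM in BHB and 12034, 12050.2 and 9619.5 CPM in Medium, against 1485, 1500.2 and 1476 CPM in Control (log2 fold change 1.78, standard error 0.103, adjusted p = 2.49e-09). Il1rn, the secreted antagonist of the IL-1 receptor, averaged 733 ± 49.5 CPM in BHB and 1052 ± 74.03 CPM in Medium, against 79.7 ± 3.39 CPM in Control and was 9.19-fold higher in BHB than in Control. Il6 was held by so few Control reads, 3 counts in all against 1848 in BHB, that its ratio of 546 has a counting interval of 187 to 2650. Il1b, which needs a second signal for release as a protein, was at 7.35 CPM in BHB, 234 CPM in Medium and 0.205 CPM in Control, and Cxcl10, an interferon-inducible chemokine, at 12.5, 415 and 1.37 CPM. Both were higher in BHB than in Control (log2 fold changes 5.02 and 3.16) and lower in BHB than in Medium (log2 fold changes of BHB over Medium -4.99 and -5.06, adjusted p = 1.08e-10 and 7.08e-14). Lif, by contrast, was above its Medium level, with 32.8, 33.4 and 47.6 CPM in BHB and 8.38, 9.03 and 16.8 CPM in Medium, against 1.67, 1.56 and 2.78 CPM in Control. Among those that were lower in BHB, Csf1, the growth factor that macrophages depend on, had 181, 161 and 173 CPM in BHB and 563, 552 and 395 CPM in Medium, against 539, 514 and 522 CPM in Control (log2 fold change -1.62, standard error 0.105, adjusted p = 9.07e-09). Tgfb1, Cxcl14 and Tnfsf9 did not pass the test, at log2 fold changes of -0.1, 0.056 and 0.15.

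Enzymes and surface effectors of inflammation followed the same direction, with 24 of 28 tested genes higher and 1 lower (median log2 fold change 1.77). Nos2 had 3821, 3449 and 4148 CPM in BHB and 733, 695 and 624 CPM in Medium, against 54.9, 47.4 and 51.97 CPM in Control (log2 fold change 6.21, standard error 0.104, adjusted p = 9.9e-15). Ptgs2, which makes the precursor of prostaglandin E2, had 834, 879 and 1219 CPM in BHB and 663, 598 and 535 CPM in Medium, against 31.2, 28.3 and 28.6 CPM in Control (log2 fold change 5.06, standard error 0.142, adjusted p = 1.31e-12). In both, BHB was the highest of the 3 groups and no value overlapped. The difference of BHB over Medium was 2.48 on the log2 scale for Nos2 (adjusted p = 2.48e-11) and 0.71 for Ptgs2 (adjusted p = 9.77e-05). Ptges, the next enzyme of that pathway, averaged 83.2 ± 8.62 CPM in BHB and 86.7 ± 7.69 CPM in Medium, against 8.27 ± 0.7597 CPM in Control. Acod1, which makes itaconate from a TCA cycle intermediate, had 1022, 1211 and 1219.6 CPM in BHB and 1856, 1994 and 2086 CPM in Medium, against 104, 113 and 108 CPM in Control (log2 fold change 3.41, standard error 0.08296, adjusted p = 2.8e-13). Lcn2 was further from its Medium level, with 1488, 1652 and 1601 CPM in BHB and 8716, 8892 and 7565 CPM in Medium, against 16.1, 15.6 and 18.5 CPM in Control (log2 fold change 6.56, standard error 0.106, adjusted p = 9.9e-15). Mmp9, a gelatinase, was highest in BHB, at 85.1 ± 8.304 CPM in BHB and 17.2 ± 2.695 CPM in Medium, against 24.3 ± 2.81 CPM in Control. Mmp13, a collagenase, was instead near the untreated level, with 3.65, 2.92 and 3.41 CPM in BHB and 474, 472 and 379 CPM in Medium, against 1.32, 2.45 and 1.23 CPM in Control, although the difference passed the test (log2 fold change 0.96, standard error 0.229, adjusted p = 0.00188). Cfb, complement factor B, and Hdc, which makes histamine, were not called in BHB against Control, at 0.205 and 0.8097 CPM in BHB, 33.7 and 15.7 CPM in Medium and 0.142 and 0.681 CPM in Control.

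Several feedback inhibitors of NF-κB were above the untreated level by more than the subunits, none of which reached 2-fold. Of 32 tested genes of NF-κB and its regulators, 24 were higher and 2 lower (median log2 fold change 0.681), with 12 at least 2-fold higher. Nfkbia, which encodes IκBα, had 185, 199.97 and 204 CPM in BHB and 216, 234 and 369.7 CPM in Medium, against 16.1, 18.1 and 17.4 CPM in Control (log2 fold change 3.51, standard error 0.166, adjusted p = 3.47e-10). Tnfaip3, the ubiquitin-editing enzyme A20, averaged 82.5 ± 4.84 CPM in BHB and 169.7 ± 11.6 CPM in Medium, against 12.4 ± 1.12 CPM in Control (log2 fold change 2.73, standard error 0.0817, adjusted p = 2.93e-12). Traf1, an adaptor induced by NF-κB, had 51.9, 52.3 and 46.9 CPM in BHB and 101, 101 and 129.6 CPM in Medium, against 3.22, 3.06 and 2.27 CPM in Control (log2 fold change 4.14, standard error 0.135, adjusted p = 6.08e-12). Irak3, which restrains Toll-like receptor signalling in macrophages, averaged 39.7 ± 2.12 CPM in BHB and 14.97 ± 1.81 CPM in Medium, against 6.14 ± 0.278 CPM in Control and was higher in BHB than in Control by 2.69 on the log2 scale. Zfp36, which destabilizes cytokine mRNA, and Nfkbiz, a nuclear IκB protein, were both higher as well (log2 fold changes 2.7 and 2.7). Rela, the p65 subunit, was lower by a small amount, with 50.6, 50.03 and 45.5 CPM in BHB and 61.7, 68.3 and 65.8 CPM in Medium, against 59.4, 59.6 and 62.4 CPM in Control (log2 fold change -0.31, standard error 0.0654, adjusted p = 0.000733). Ikbkb, the activating kinase, did not pass the test, at a log2 fold change of -0.18 with a 95% interval of -0.37 to 0.011.

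Promoters of these regulators were searched for a simple κB motif. This list, like those searched for motifs below, was chosen by pathway, so a motif share in it is no test of these data. The motif GGNNTTTCC, on either strand and within 250 bases before to 50 bases after the RefSeq start, was found in 5.70% of 27025 mouse promoters, in 5.99% of those of tested genes and in 9 of the 28 list members that matched by symbol, 7 of them among the 21 matched members that were higher in BHB. It is a match of letters and not a measured binding site. Shown are the 250 bases before the start of the 2 members with the largest increase and a match upstream, Nfkbia (GRCm38.p6, chr12:55492648-55492897, minus strand) and Tnfaip3 (chr10:19015411-19015660, minus strand), written 5′ to 3′ along the gene, from RefSeq, with the motif in capitals.
Nfkbia: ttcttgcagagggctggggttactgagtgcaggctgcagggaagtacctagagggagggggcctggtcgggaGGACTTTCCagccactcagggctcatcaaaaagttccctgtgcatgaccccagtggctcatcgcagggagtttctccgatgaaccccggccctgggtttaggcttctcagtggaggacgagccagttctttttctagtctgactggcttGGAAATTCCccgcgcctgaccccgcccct
Tnfaip3: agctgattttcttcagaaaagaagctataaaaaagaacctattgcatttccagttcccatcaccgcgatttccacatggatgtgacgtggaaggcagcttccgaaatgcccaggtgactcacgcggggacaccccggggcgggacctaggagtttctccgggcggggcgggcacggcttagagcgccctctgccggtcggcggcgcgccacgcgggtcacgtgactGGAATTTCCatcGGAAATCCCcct
The matches began -178 and -29 bases from the start in Nfkbia and -24 and -12 bases in Tnfaip3, where a negative position lies before the start.

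More interferon-stimulated genes lay above than below the untreated level in BHB. Of 50 listed, 37 were tested, 21 called higher and 8 called lower, 10 and 3 of these by at least 2-fold, with a median log2 fold change of 0.402, beside a median of 2.31 for Medium over Control, a comparison that shares the Control libraries. Rsad2, the antiviral enzyme viperin, had 27.7, 32.3 and 26.9 CPM in BHB and 884, 889.7 and 960.2 CPM in Medium, against 20.9, 21.3 and 23.9 CPM in Control (log2 fold change 0.4, standard error 0.0806, adjusted p = 0.000549). Isg15, a ubiquitin-like modifier, had 18.3, 21.7 and 15.7 CPM in BHB and 183, 181 and 144 CPM in Medium, against 5.97, 6.95 and 6.496 CPM in Control (log2 fold change 1.52, standard error 0.132, adjusted p = 1.62e-07). Both stood below every Medium library, by a log2 fold change of BHB over Medium of -4.97 and -3.19 (adjusted p = 2.1e-14 and 2.83e-11). Usp18, which removes ISG15, was not called against Control and averaged 39.998 ± 4.64 CPM in BHB and 178 ± 20.3 CPM in Medium, against 37.7 ± 3.66 CPM in Control. Rtp4 was not called either, with a mean of 9.05 ± 1.48 CPM in BHB and 98.8 ± 8.58 CPM in Medium, against 10.5 ± 0.591 CPM in Control. Cmpk2, a mitochondrial nucleotide kinase, lay under the untreated level, with 1.23, 1.43 and 1.305 CPM in BHB and 52.3, 57.3 and 57.2 CPM in Medium, against 3.8002, 3.95 and 3.54 CPM in Control (log2 fold change -1.51, standard error 0.133, adjusted p = 1.97e-07). Slfn4 and Gbp2 were among the larger increases of the list. Slfn4 had 52.5, 59.4 and 58.4 CPM in BHB and 840.1, 793 and 796 CPM in Medium, against 17.4, 15.5 and 16.5 CPM in Control (log2 fold change 1.79). Gbp2 was far less abundant, with 2.599, 4.55 and 2.28 CPM in BHB and 53.4, 48.5 and 27.3 CPM in Medium, against 0.349, 0.351 and 0.397 CPM in Control (log2 fold change 3.1). Among the regulators, Irf7, the factor that amplifies interferon production, had 194, 233 and 182 CPM in BHB and 862, 833 and 632 CPM in Medium, against 61.2, 68.5 and 63.5 CPM in Control (log2 fold change 1.66, standard error 0.114, adjusted p = 1.5e-08). Irf1 was not called (log2 fold change -0.1, 95% interval -0.33 to 0.13). Ifnb1, interferon β itself, had 0 counts in every BHB library, 0, 0 and 2 counts in Control and 18, 4 and 0 counts in Medium, too few for a test. MHC genes moved in part, with 6 of 13 tested higher and 3 lower, Cd74 (the class II invariant chain) by 1.1 and B2m by 0.56 on the log2 scale.

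The interferon motif GAAANNGAA was present in 8.58% of all promoters, in 6.83% of those of tested genes and in 17 of the 28 matched members of the list. Of the 17 matched members that were higher in BHB, 11 held it. The upstream 250 bases of the 2 members with the largest increase and an upstream match are shown, with the motif in capitals, for Gbp2 (GRCm38.p6, chr3:142620413-142620662, plus strand) and Isg15 (chr4:156200819-156201068, minus strand).
Gbp2: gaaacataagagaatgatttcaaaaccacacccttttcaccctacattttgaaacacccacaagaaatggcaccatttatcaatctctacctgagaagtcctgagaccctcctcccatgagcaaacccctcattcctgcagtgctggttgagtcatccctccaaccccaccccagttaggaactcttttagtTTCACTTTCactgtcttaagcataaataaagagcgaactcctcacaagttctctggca
Isg15: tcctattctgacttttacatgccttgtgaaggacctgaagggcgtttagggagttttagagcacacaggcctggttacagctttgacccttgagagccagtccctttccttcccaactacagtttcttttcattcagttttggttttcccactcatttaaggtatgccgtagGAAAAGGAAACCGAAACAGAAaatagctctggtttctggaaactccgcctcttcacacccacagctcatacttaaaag
Isg15 held matches that overlap one another, beginning at -78, -72 and -66, and the single match of Gbp2 began at -58.

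Among LPS receptors and genes of Toll-like receptor signalling, more were lower than higher in BHB. Of 20 tested genes, 4 were higher, 10 lower and 6 not called (median log2 fold change -0.229). Tlr4, the LPS receptor, had 11.7, 12.01 and 16.1 CPM in BHB and 10.7, 12.2 and 18.01 CPM in Medium, against 35.02, 37.8 and 34.4 CPM in Control (log2 fold change -1.43, standard error 0.161, adjusted p = 2.29e-06). Tlr7 had 30.1, 32.1 and 32.04 CPM in BHB and 18.3, 17.2 and 30.99 CPM in Medium, against 139, 137 and 138 CPM in Control (log2 fold change -2.14, standard error 0.149, adjusted p = 1.71e-08). Tlr2, for bacterial lipoproteins, and Cd180, an inhibitor of TLR4, were lower too (log2 fold changes -0.85 and -0.76). The co-receptor Cd14 went the other way, with 418, 431 and 392.1 CPM in BHB and 658, 673 and 648 CPM in Medium, against 104, 99.4 and 102 CPM in Control (log2 fold change 2.02, standard error 0.0568, adjusted p = 1.31e-12). Tlr9, Traf6 and Ticam2 were not called, at log2 fold changes of 0.13, -0.11 and 0.1.

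Genes of resting microglia moved in both directions. Of 28 tested, 8 were higher, 11 lower and 9 not called (median log2 fold change -0.109). Cx3cr1, the fractalkine receptor, had 11.98, 10.9 and 11.2 CPM in BHB and 6.89, 4.45 and 5.99 CPM in Medium, against 9.66, 12.5 and 10.9 CPM in Control, and Tmem119 had 1.896, 2.01 and 1.63 CPM in BHB and 0.381, 0.4198 and 0.267 CPM in Medium, against 1.75, 2.17 and 2.13 CPM in Control, with log2 fold changes of 0.04 (95% interval -0.28 to 0.36) and -0.13 (-0.67 to 0.42). For these 2 the groups BHB and Control overlapped and neither passed the test. The transcription factors Mef2c and Spi1 (PU.1) were lower, with log2 fold changes of -0.59 and -0.46. Itgam, the CD11b integrin, and Bin1 were higher (log2 fold changes 0.48 and 0.49). P2ry13, an ADP receptor, was near the limit of detection, at 0.0585 CPM in BHB against 0.829 CPM in Control. Of 11 tested purinergic genes 4 were higher and 5 lower, among them P2rx7, an ATP-gated channel, with 32.9, 30.8 and 26.6 CPM in BHB and 22.02, 16.5 and 27.9 CPM in Medium, against 70.2, 67.2 and 66.1 CPM in Control (log2 fold change -1.17, standard error 0.132, adjusted p = 2.23e-06).

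The Trem2-dependent, phagocytic genes were lower in 14 of 29 and higher in 10. Trem2, the lipid receptor of microglia, had 134, 133 and 124 CPM in BHB and 26.2, 27.4 and 22.6 CPM in Medium, against 244, 256 and 226 CPM in Control (log2 fold change -0.89, standard error 0.0687, adjusted p = 4.81e-08). Its level in BHB was 2.36 on the log2 scale above that in Medium (adjusted p = 8.93e-12) and still under that in every Control library. Apoe, the main lipoprotein of glia, had 659, 707 and 715 CPM in BHB and 1005, 992 and 768 CPM in Medium, against 1562, 1566 and 1541 CPM in Control (log2 fold change -1.17, standard error 0.0873, adjusted p = 3.56e-08). Axl had 3.79, 2.79 and 3.73 CPM in BHB and 33.1, 38.03 and 16.8 CPM in Medium, against 36.4, 37.4 and 36.1 CPM in Control (log2 fold change -3.42, standard error 0.244, adjusted p = 2.2e-08), with BHB under both other groups. Itgax (CD11c) and Lpl (lipoprotein lipase) were lower (log2 fold changes -1.15 and -0.77). Spp1, osteopontin, was among the most abundant transcripts and was higher, with 23673, 25172 and 24744 CPM in BHB and 30825, 29531 and 25584 CPM in Medium, against 10938, 11323 and 11114 CPM in Control (log2 fold change 1.14, standard error 0.0857, adjusted p = 3.66e-08). Msr1, scavenger receptor A, had 62.7, 71.9 and 66.3 CPM in BHB and 33.03, 36.02 and 28.5 CPM in Medium, against 5.39, 5.801 and 4.19 CPM in Control (log2 fold change 3.7, standard error 0.1199, adjusted p = 5.97e-12), a level in BHB above both other groups. In a separate list of scavenger, Fc and lectin receptors, 8 of 19 tested were higher and 4 lower (median log2 fold change 0.336). Among its lower members, Sirpa, the receptor for CD47 that holds back engulfment, had 323, 303 and 307 CPM in BHB and 464, 475 and 519 CPM in Medium, against 865, 874 and 828 CPM in Control (log2 fold change -1.46, standard error 0.0606, adjusted p = 8.75e-11). Cd300a, also of that list, was at 25.2 ± 2.67 CPM in BHB and 8.35 ± 0.393 CPM in Medium, against 114 ± 3.91 CPM in Control. Of the Trem2-dependent, phagocytic genes, Cd68, Ctsd, Cd9 and Tyrobp were not called, with log2 fold changes between -0.088 and -0.049.

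Markers of alternative activation did not move as one, with 10 of 18 higher, 6 lower and 8 and 6 of these at least 2-fold. Arg1, arginase 1, had 98.8, 94.3 and 117 CPM in BHB and 2.11, 1.09 and 0.534 CPM in Medium, against 29.7, 28.97 and 29.9 CPM in Control (log2 fold change 1.81, standard error 0.143, adjusted p = 6.28e-08). The groups were fully separated, with BHB highest and Medium lowest. Tgm2, transglutaminase 2, was highest in Medium, at 11.5 ± 1.06 CPM in BHB and 29.4 ± 3.105 CPM in Medium, against 3.75 ± 0.275 CPM in Control, and Vegfa was highest in BHB, at 303 ± 25.9 CPM in BHB and 166 ± 14.5 CPM in Medium, against 138 ± 2.44 CPM in Control. Alox15, a lipoxygenase of resolving lipid mediators, was far below the untreated level, with 0, 0.1299 and 0.326 CPM in BHB and 1.04, 1.76 and 1.37 CPM in Medium, against 5.35, 4.94 and 5.74 CPM in Control (log2 fold change -5.11, standard error 0.453, adjusted p = 1.96e-07). In the arginine and polyamine list, 9 of 20 were higher and 4 lower (median log2 fold change 0.135, and -0.00477 with library sizes alone). Odc1, the first enzyme of polyamine synthesis, had 3193, 3528 and 3365 CPM in BHB and 3842, 3838 and 3208 CPM in Medium, against 224, 234 and 231 CPM in Control (log2 fold change 3.87, standard error 0.0859, adjusted p = 1.1e-13), while the following enzymes Amd1 and Srm were lower (log2 fold changes -1.21 and -0.67), as was Pts, which supplies the tetrahydrobiopterin cofactor of nitric oxide synthase (-1.53). Asl and the arginine transporter Slc7a2 were not called (0.1 and 0.003).

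**Figure D3:**
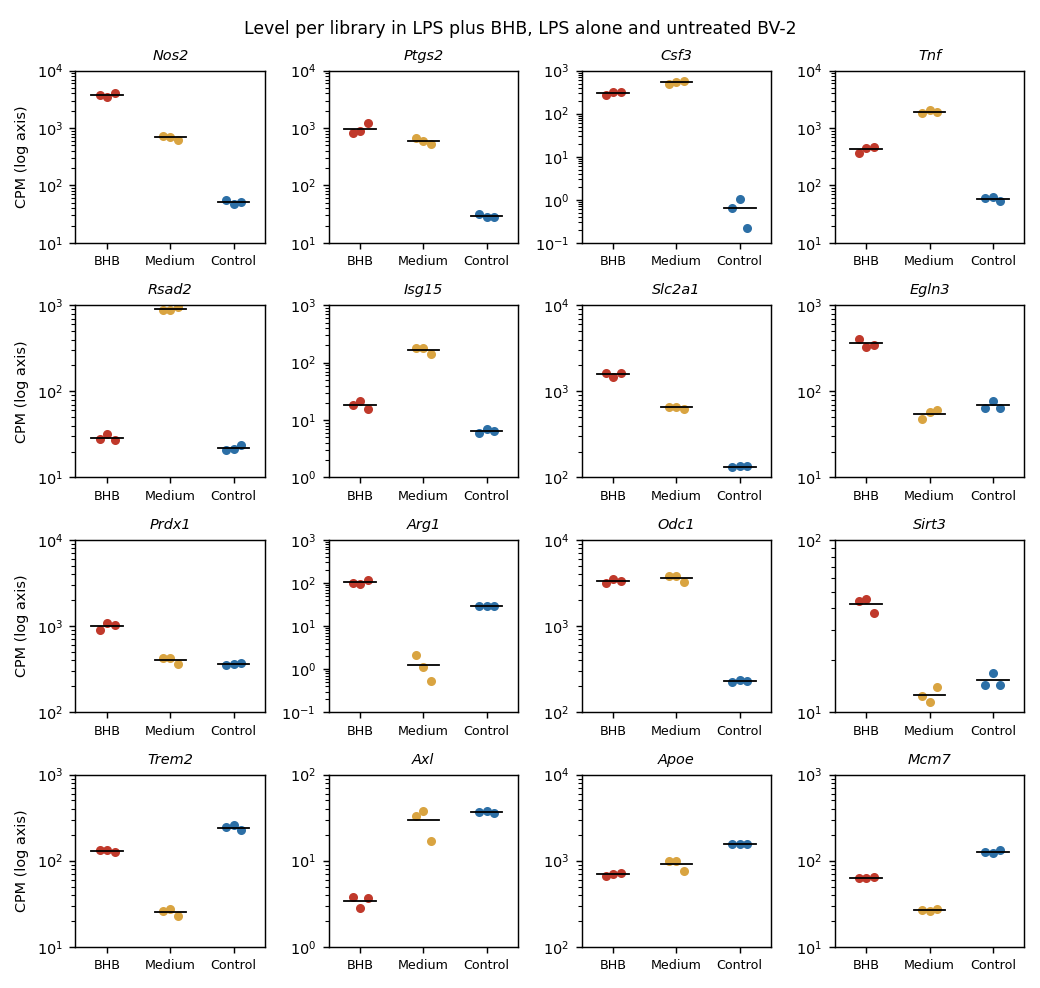
CPM per library on a log axis for 16 genes, in BHB (LPS plus β-hydroxybutyrate, red), Medium (LPS alone, yellow) and Control (PBS, blue). Points are the 3 libraries of a group and the bar is their mean. Nos2, Slc2a1, Egln3, Prdx1, Arg1 and Sirt3 are highest in BHB, and Axl and Apoe are lowest there.

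Glucose uptake and glycolysis genes were above the untreated level. Of 23 tested, 14 were higher and 3 lower (median log2 fold change 0.503, beside -0.485 for Medium over Control). Slc2a1, the glucose transporter GLUT1, had 1624, 1471 and 1624 CPM in BHB and 662, 655 and 632 CPM in Medium, against 133, 134 and 135 CPM in Control (log2 fold change 3.55, standard error 0.0641, adjusted p = 1.67e-14). Each BHB library exceeded each Medium library, and each of those exceeded each Control library. Slc2a3 (GLUT3) was higher too, at 25.3 ± 2.94 CPM in BHB and 7.91 ± 1.04 CPM in Medium, against 7.58 ± 0.598 CPM in Control. Ldha, which turns pyruvate to lactate, had 2586, 2697 and 2786 CPM in BHB and 1029, 981 and 1159 CPM in Medium, against 1456, 1499.8 and 1487 CPM in Control (log2 fold change 0.86, standard error 0.0692, adjusted p = 7.36e-08), with Medium below Control. Hk1, Pgam1, Hk2 and Tpi1 were higher by 0.96, 0.95, 0.88 and 0.85 on the log2 scale. Pdk1 and the lactate exporter Slc16a3 were not called (-0.08 and 0.12), and the monocarboxylate carrier Slc16a1 was lower (-0.44).

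Targets of the hypoxia-inducible factor HIF-1 were higher in large part. Of 37 tested genes in a list that joins these targets with the oxygen-sensing core, 29 were higher, 17 of them at least 2-fold, and 6 were lower (median log2 fold change 0.939, beside -0.208 for Medium over Control). Egln3, a prolyl hydroxylase that is itself a HIF-1 target, had 407, 329 and 348 CPM in BHB and 48.1, 56.8 and 60.5 CPM in Medium, against 63.5, 77.7 and 64.5 CPM in Control (log2 fold change 2.4, standard error 0.102, adjusted p = 1.24e-10). Ndrg1 had 1469, 1279 and 1514 CPM in BHB and 303, 287 and 285 CPM in Medium, against 530.4, 572 and 538 CPM in Control (log2 fold change 1.38, standard error 0.0695, adjusted p = 6.18e-10). Plod2, a collagen lysyl hydroxylase, averaged 464 ± 42.8 CPM in BHB and 147 ± 9.82 CPM in Medium, against 165 ± 8.08 CPM in Control. Gys1, glycogen synthase, averaged 340.00 ± 25.997 CPM in BHB and 87.1 ± 6.08 CPM in Medium, against 116 ± 7.24 CPM in Control. In all 4 genes every BHB library lay above every library of both other groups. Higd1a, Ddit4, Ak4 and Bnip3 were higher by 1.68, 1.32, 1.17 and 0.95. Stc2 and Bhlhe40 were lower (-1.34 and -0.49) and Hif1an, an inhibitor of HIF-1, was not called (-0.014). The core hypoxia motif, ACGTG or GCGTG, was in 43.8% of all promoters, 64.6% of the promoters of tested genes and 24 of the 31 matched members.

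Enzymes against oxidative stress rose for the most part. Of 32 tested genes in the list of NRF2 and its targets, 23 were higher, 11 of these at least 2-fold, and 6 were lower (median log2 fold change 0.832, beside 0.123 for Medium over Control). Hmox1, heme oxygenase 1, had 1301, 1237 and 1880.4 CPM in BHB and 2198, 2262 and 1505 CPM in Medium, against 260.5, 263 and 257 CPM in Control (log2 fold change 2.5, standard error 0.161, adjusted p = 7.71e-09). Prdx1, a peroxiredoxin, had 902, 1083 and 1029.6 CPM in BHB and 422, 425 and 365 CPM in Medium, against 353, 361 and 374 CPM in Control (log2 fold change 1.47, standard error 0.0774, adjusted p = 1.03e-09). The glutathione peroxidase Gpx1 averaged 281 ± 10.7 CPM in BHB and 95.8 ± 3.36 CPM in Medium, against 127 ± 0.285 CPM in Control. Gss, glutathione synthetase, averaged 37.2 ± 3.37 CPM in BHB and 17.3 ± 0.685 CPM in Medium, against 12.3 ± 0.508 CPM in Control. Ptgr1, a prostaglandin reductase, averaged 71.6 ± 4.28 CPM in BHB and 15.4 ± 2.95 CPM in Medium, against 21.99 ± 0.513 CPM in Control. Unlike Hmox1, these and Prdx1 were highest in BHB. Sqstm1, the autophagy receptor p62, was higher by 1.34. Nfe2l2, which encodes NRF2, was lower, with 104, 106 and 112 CPM in BHB and 158, 160.2 and 138 CPM in Medium, against 224, 233 and 235 CPM in Control (log2 fold change -1.1, standard error 0.0631, adjusted p = 2.33e-09), and so was Ephx1, an epoxide hydrolase (-1.93). Txnrd1, Gstp1 and Txn2 were not called (-0.0002, 0.057 and -0.051). The antioxidant motif TGACNNNGC was in 12.4% of all promoters, 1263 of the 8408 promoters of tested genes and 4 of the 27 matched members. Of 16 tested genes in a list that joins FOXO factors, metallothioneins and antioxidant targets, 11 were higher and 3 lower. That list also holds Cdkn1a, Gadd45a and Ddit4, so its count is not one of antioxidant genes alone. Mt1, a metallothionein, was higher, at 508 ± 19.5 CPM in BHB and 1984 ± 472 CPM in Medium, against 62.9 ± 2.79 CPM in Control. Subunits of the phagocyte oxidase were higher where called but for Rac1, with Cybb (gp91phox) at 1.29 and Ncf4 at 1.49. Iron genes changed in both directions, 11 of 18 higher and 6 lower. The importers Slc11a2 and Tfrc were higher (1.72 and 1.56), and Slc40a1, the iron exporter ferroportin, had 31.9, 35.97 and 35.4 CPM in BHB and 113, 117 and 103 CPM in Medium, against 104, 101 and 94.3 CPM in Control (log2 fold change -1.53, standard error 0.0703, adjusted p = 2.46e-10).

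Lipid genes divided by pathway. Cholesterol synthesis and its SREBP-2 targets were higher in 15 of 24 and lower in 4 (median log2 fold change 0.498), with Sqle, squalene epoxidase, at 162 ± 6.64 CPM in BHB and 87.5 ± 12.1 CPM in Medium, against 67.1 ± 2.42 CPM in Control. LXR and sterol efflux genes were lower in 6 of 13 and higher in 3. The largest increase among them was that of Npc2 (log2 fold change of 0.71 to 0.89 over the alternative fits described below). The ubiquitin ligase Mylip, in this list but not itself an exporter, was at 7.39 ± 0.4603 CPM in BHB and 14.98 ± 1.15 CPM in Medium, against 42.7 ± 4.36 CPM in Control. Abcg1, a cholesterol exporter, was at 54.1 ± 0.813 CPM in BHB and 126 ± 5.44 CPM in Medium, against 108 ± 6.17 CPM in Control. Fatty acid genes, 11 of 34 higher and 13 lower, were near the shares over all genes tested (33.4% and 33.3%). The sign of their median changed with scaling (0.0133, and -0.126 with library sizes alone). Cpt1a had 4.25, 3.08 and 4.13 CPM in BHB and 8.66, 7.304 and 9.73 CPM in Medium, against 24.7, 25.4 and 26.7 CPM in Control (log2 fold change -2.75, standard error 0.139, adjusted p = 6.37e-10). Fasn, fatty acid synthase, was lower (log2 fold change -1.06), while Hilpda, a lipid droplet protein that HIF-1 induces, was higher, at 124 ± 8.45 CPM in BHB and 137 ± 13.4 CPM in Medium, against 18.3 ± 1.02 CPM in Control.

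Proliferation genes stayed under the untreated level. Of 39 tested genes of DNA replication and S phase, 33 were lower and 3 higher (median log2 fold change -0.655), and of 38 mitosis genes 26 were lower and 3 higher (median -0.448). Mcm7, a subunit of the replicative helicase, had 62.9, 62.95 and 65.1 CPM in BHB and 26.8, 26.3 and 27.2 CPM in Medium, against 127, 123 and 132 CPM in Control (log2 fold change -1.0, standard error 0.0549, adjusted p = 1.56e-09). Mcm10 and Fen1, a flap endonuclease, were lower (log2 fold changes -1.11 and -1.1). Mki67, which encodes the proliferation antigen Ki-67, had 194, 198 and 254 CPM in BHB and 222, 215 and 167 CPM in Medium, against 488, 489 and 511 CPM in Control (log2 fold change -1.2, standard error 0.109, adjusted p = 2.37e-07). Foxm1, the factor of G2 and M phase genes, averaged 23.1 ± 1.73 CPM in BHB and 19.9 ± 3.03 CPM in Medium, against 54.1 ± 4.64 CPM in Control. Most were under 2-fold, since only 4 of the S phase genes and 2 of the mitosis genes were at least 2-fold lower. Top2a and Tpx2 were not called (-0.14 and -0.14), and Pttg1, securin, was higher (0.77). In a list that joins D cyclins with CDK inhibitors and p53 targets, 13 of 19 were higher and 3 lower. Cdkn1a, the inhibitor p21, had 335, 288 and 346 CPM in BHB and 115, 109.6 and 113 CPM in Medium, against 69.1, 71.3 and 69.9 CPM in Control (log2 fold change 2.2, standard error 0.0679, adjusted p = 3.5e-12), and Gadd45a, a stress gene, had 51.3, 53.1 and 61.4 CPM in BHB and 15.3, 15.1 and 19.8 CPM in Medium, against 6.51, 6.09 and 5.85 CPM in Control (log2 fold change 3.17, standard error 0.1195, adjusted p = 3.2e-11). Both were highest in BHB. The D cyclins Ccnd1 and Ccnd2 were lower (-1.2 and -1.15). Myc was higher, at 13.98 ± 1.78 CPM in BHB and 7.76 ± 1.34 CPM in Medium, against 3.901 ± 0.577 CPM in Control. The list that joins Myc with ribosome biogenesis genes was lower in 19 of 33 and higher in 6, Myc among the 6. Its lower members included Dkc1 at -1.28 and Rrs1 at -1.32.

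A strict E2F motif, TTTGGCGC or TTTCCCGC on either strand, was in 1.63% of all promoters, 3.35% of those of tested genes and 10 of the 33 matched S phase members, 9 of them among the 28 that were lower in BHB. The 2 members with the largest decrease and an upstream match were Mcm7 (GRCm38.p6, chr5:138171884-138172133, minus strand) and Pola1, a DNA polymerase α subunit (chrX:93632156-93632405, minus strand), chosen once the matches were known, as for the sequences above. The log2 fold change of Pola1 was -0.88. Capitals mark the motif.
Mcm7: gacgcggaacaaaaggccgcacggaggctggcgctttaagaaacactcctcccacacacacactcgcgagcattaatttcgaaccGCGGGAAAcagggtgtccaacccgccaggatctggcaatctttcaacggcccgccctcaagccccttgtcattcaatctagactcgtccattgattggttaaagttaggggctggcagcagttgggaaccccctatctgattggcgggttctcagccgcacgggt
Pola1: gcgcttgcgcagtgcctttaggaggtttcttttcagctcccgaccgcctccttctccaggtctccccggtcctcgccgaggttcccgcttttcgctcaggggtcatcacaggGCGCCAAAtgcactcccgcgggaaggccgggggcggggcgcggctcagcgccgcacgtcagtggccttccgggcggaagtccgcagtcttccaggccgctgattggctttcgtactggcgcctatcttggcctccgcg
The match began at -165 from the start of Mcm7 and at -138 from that of Pola1.

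Sirt3, which encodes the mitochondrial deacetylase the study centred on, was above the untreated level. It had 44.4, 45.1 and 37.4 CPM in BHB and 12.4, 11.4 and 14.01 CPM in Medium, against 14.5, 16.9 and 14.4 CPM in Control (log2 fold change 1.47, standard error 0.105, adjusted p = 2.15e-08). Every BHB library lay above every Control library and every Control library above every Medium library, where Medium over Control gave -0.28 on the log2 scale (adjusted p = 0.0349). In an exact permutation test of the CPM of BHB against Control, two-sided, p was 0.1, the smallest value that 3 against 3 libraries allow. The gene (GRCm38, chromosome 7, 140863666 to 140882309, minus strand, GENCODE M21) overlaps Psmd13 and Ric8a, named here for that reason, which had log2 fold changes of 0.8 and 0.23, and reads in the shared part cannot be assigned without strand. Other sirtuin and NAD genes were mixed, 7 of 13 higher and 3 lower, with Nampt, the rate-limiting enzyme of NAD salvage, at 247 ± 13.2 CPM in BHB and 194 ± 1.59 CPM in Medium, against 156 ± 3.88 CPM in Control and Sirt7 not called (-0.058). Ucp2, an uncoupling protein, was lower, with 215, 214 and 216 CPM in BHB and 106, 101 and 115 CPM in Medium, against 277, 269 and 271 CPM in Control (log2 fold change -0.34, standard error 0.0552, adjusted p = 7.67e-05). Ppargc1b, a coactivator of mitochondrial genes, was also lower (-0.85), as were Pprc1 (-1.48) and the mitophagy kinase Pink1 (-0.53). Pparg had 6 to 9 counts per library in BHB, 0 in Medium and 2 to 16 in Control and was not tested. Genes of mitochondrial maintenance were higher in 9 of 25 and lower in 10, beside 33.4% and 33.3% over all genes tested. Sod2 and Slc25a5 were among the higher ones (log2 fold changes of 0.73 to 0.94 and 0.34 to 0.52 over the alternative fits). Opa1, Fis1 and Mfn1 were not called (0.1, 0.14 and -0.046).

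Nuclear-encoded respiratory chain subunits were higher in 31 of 54 and lower in 3 (median log2 fold change 0.235). Scaled by library sizes alone, 20 were higher and 7 lower, so the size of the shift depends on scaling. Uqcrh was the only member at 2-fold, at 81.6 ± 7.15 CPM in BHB and 95.5 ± 10.5 CPM in Medium, against 40.6 ± 1.47 CPM in Control. Genes of the TCA cycle and itaconate, Acod1 among them, were higher in 14 of 24 and lower in 5, mostly by small amounts, with Mdh2 at 0.51 and Suclg2 at -0.54. Of the genes that handle ketone bodies, 5 of 12 tested were higher and 4 lower. Hcar2, the β-hydroxybutyrate receptor, had 129.7, 140.2 and 145 CPM in BHB and 126, 128 and 125 CPM in Medium, against 62.5, 66.8 and 64.1 CPM in Control (log2 fold change 1.1, standard error 0.0568, adjusted p = 7.93e-10). Bsg, the chaperone of monocarboxylate carriers, was higher (0.93). The enzymes of ketone use went down, Oxct1 with 333, 361 and 386 CPM in BHB and 261, 253 and 235 CPM in Medium, against 517, 527 and 525 CPM in Control (log2 fold change -0.54, standard error 0.0627, adjusted p = 3.24e-06) and Acat1 with 72.1, 73.4 and 80.7 CPM in BHB and 50.8, 52.6 and 41.7 CPM in Medium, against 139.6, 149.9 and 141 CPM in Control (log2 fold change -0.93, standard error 0.0787, adjusted p = 1.28e-07). Bdh1, which oxidizes β-hydroxybutyrate, had 8 to 13 counts per library in BHB, 0 in Medium and 2 to 4 in Control and was not tested. Classical histone deacetylases were higher in 5 of 10 tested and lower in 2 (3 each when scaled by library sizes alone). Hdac7 stood out, with 25.99, 20.6 and 21.6 CPM in BHB and 1.14, 0.6297 and 0.992 CPM in Medium, against 1.36, 1.75 and 1.696 CPM in Control (log2 fold change 3.82, standard error 0.175, adjusted p = 2.44e-10), and Hdac9 was lower, with 18.1, 14.9 and 15.7 CPM in BHB and 6.27, 6.72 and 4.66 CPM in Medium, against 35.7, 39.7 and 33.6 CPM in Control (log2 fold change -1.16, standard error 0.118, adjusted p = 7.99e-07). Hdac3, of class I, was higher by 0.42, and Hdac6 and Hdac8 were not called.

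Other stress and signalling lists were mixed. ER chaperones were higher in 13 of 24 and lower in 6, none of them by 2-fold, with Hspa5 (BiP) at 963 ± 39.6 CPM in BHB and 3332 ± 564 CPM in Medium, against 595 ± 28.3 CPM in Control. Cytosolic heat shock genes were higher in 10 of 17 and lower in 3, Hsph1 by 1.37. Lysosomal genes were higher in 26 of 47 and lower in 13, with Npc2 at 0.85 and Atp6v0d2 at -1.56, and Tfeb, a regulator of lysosomal genes, was lower (-1.18). Amino acid supply and ATF4 targets were higher in 10 of 25 and lower in 11, beside 33.4% and 33.3% over all genes tested. Chac1 was at -1.54 and Atf3 at 1.11, and Atf4 itself was not called (-0.19). AP-1 and immediate early genes were higher in 11 of 18 and lower in 5. Junb was at 118 ± 8.63 CPM in BHB and 269 ± 10.4 CPM in Medium, against 30.9 ± 0.676 CPM in Control. Ier3 was at 439 ± 33.04 CPM in BHB and 395 ± 42.9 CPM in Medium, against 58.1 ± 0.978 CPM in Control, while Egr3 was lower (-2.57) and Jun was not called (0.17). Clock genes included Nr1d1 (REV-ERBα), which was higher (1.81), and Per2, which was lower (-1.52). Inflammasome genes were higher in 8 of 15 and lower in 2, with Casp4 at 1.19 and Casp1 at 0.71, and Nlrp3 and Gsdmd were not called (0.08 and -0.1). In the list of T cell costimulators and checkpoint ligands, 5 of 12 tested were higher and 3 lower. Cd274 (PD-L1) had 172, 182 and 178 CPM in BHB and 428, 467 and 417 CPM in Medium, against 44.4, 45.7 and 41.5 CPM in Control (log2 fold change 2.02, standard error 0.0631, adjusted p = 3.94e-12). The costimulators Cd40 and Cd80 were higher too (log2 fold changes of 1.59 to 1.76 and 1.27 to 1.45 over the alternative fits), while Cd86 was lower (-0.31).

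Cytosolic ribosomal proteins had the largest share of members not called among the 45 lists with at least 10 tested genes. Of 66 tested, 6 were higher, 6 lower and 54 not called, with a median log2 fold change of -0.00917. Under library sizes alone 1 was higher and 42 lower, so their place follows the scaling. Their reads may also be shared with pseudogenes. Rpl4, Rpsa and Rplp0 were at -0.031, -0.038 and -0.093, while Rps18 was lower (-0.29) and Rpl24 higher (0.36).

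**Figure D4:**
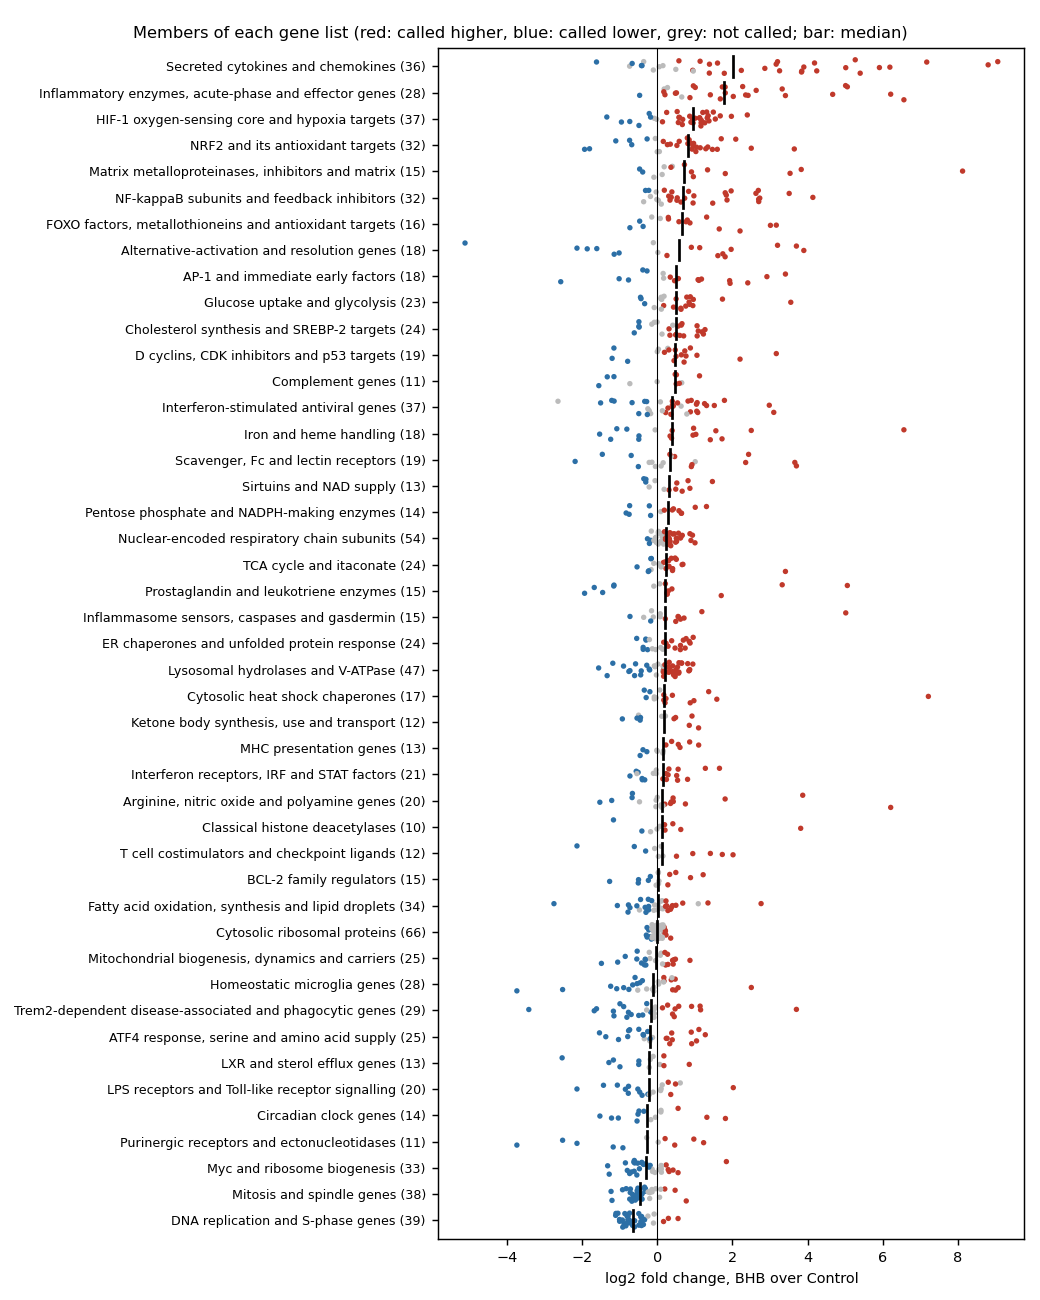
Log2 fold change of BHB over Control for every tested member of the 45 lists with at least 10 tested genes, ordered by median. Red points were called higher, blue lower and grey not called, the bar is the median and the number tested stands in brackets. Cytokines lie highest (median 2.01) and S phase genes lowest (-0.655).

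Some genes had reads in only 1 of the groups compared, and those named here were chosen after their counts were seen. Over all symbols, 599 genes were at 0 in all BHB libraries and 910 in all Control libraries, of which 257 were at 0 in both. Against a floor of 3 counts over the group, Slc6a4, the serotonin transporter, was at least 47.9-fold higher in BHB, with 86, 43 and 33 counts and none in Control. Bace1, the β-secretase, was at least 31.9-fold higher, with 43, 31 and 34 counts, and Prdm1, the repressor BLIMP-1, at least 19.2-fold higher, with 26, 29 and 10 counts. Pianp was at least 49.2-fold lower, with no count in BHB and 39, 62 and 30 in Control, and Tekt2 at least 42.8-fold lower, with none in BHB and 34, 44 and 36 in Control. Replicates did not always share a 0, since Guca1a was at 0 in Control replicate 2 while the other 2 Control libraries held it, and Gcat had 18, 0 and 139 counts in Control. The floor covers counting error only.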

How the data were processed

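Whole-number counts per gene symbol, raw and unpooled, were deposited by the authors for 12413 genes in 9 libraries. The study's methods name Skewer, STAR in strand-specific mode on GRCm38 with GENCODE annotation and StringTie, while the submitters' processing notes list HISAT2, StringTie, Trimmomatic and FastQC 0.11.5. How reads were counted was not given in the sources used here. Low genes were removed with filterByExpr over the 3 groups. After TMM scaling, the rest were tested in R 4.3.3 with edgeR 4.0.16 (glmQLFit and glmQLFTest, 1 fit of all 9 libraries, contrast BHB minus Control, Benjamini-Hochberg adjustment, threshold 0.05). Standard errors were derived from each F statistic. Total counts ranged from 23411672 to 32767278, and intervals and floors from counts cover counting error only. The study's statistical methods state that values come from independent replicates, and p-values here measure the spread between these libraries.

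Gene lists (52, matched by exact symbol) and the comparison itself were chosen with earlier results of these data known. Named genes were the 15 largest called differences in each direction at a mean log2 CPM of 3 or more without overlap, and, per list, key members, the 6 smallest p-values, the largest called differences and up to 3 abundant members not called. Genes outside it, named after their values were seen, are Pola1, Psmd13, Ric8a, Guca1a, and the low-count genes given as counts. On simulated counts of 10328 genes edgeR made 199 calls in this comparison, 11 of them false. It recovered 85.1%, 97.0% and 100% of those given a log2 change of 0.5, 1 and 2. These calls are few beside the 6948 of 10413 genes called in the data, and recovery at that larger share was not tested. Alternatives were DESeq2 1.42.0, limma-voom (limma 3.58.1), RLE factors, library sizes alone, other filters, the 2 groups alone, a replicate block, 2-fold thresholds and each library left out in turn. Promoters come from the RefSeq table of GRCm38.p6, with 1 start per gene, and positions from GENCODE M21. Ppargc1a was not analysed here, and some genes that this rule selects are not reported here.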

Additional observations from a re-analysis of the deposited data

How the results depend on the processing

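The counts of 3478 genes higher and 3470 lower in BHB stayed within 1.5 times under DESeq2, limma-voom, RLE factors, library sizes alone, both other filters, the 2 groups alone and the replicate block. Leaving out 1 library gave 3177 to 3813 higher and 3179 to 3792 lower genes, the highest without Medium replicate 3. A test against a 2-fold change called 387 higher and 283 lower, an unadjusted p with a 2-fold threshold 706 and 690, and an adjusted p with a 2-fold threshold 700 and 682, each by construction a smaller set. With library sizes alone 36.4% of called genes were higher, against 50.1% with TMM. The replicate block gave 3442 higher and 3422 lower. Same-numbered libraries of BHB and Control did not deviate together (correlations -0.0235, -0.071 and -0.0452). With 3 libraries per group this cannot exclude that same-numbered cultures were set up together. The main fit used no pairing. Of 337 named genes that were called, 323 were called under every alternative run and none changed sign, while 14 lost the call under at least 1 alternative, up to 9 of them under library sizes alone. Of the named genes not called, 70 were called under some alternative. Differences under about 0.5 on the log2 scale and genes with few counts are the least certain, and the part of sequencing depth in this was not tested.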
